A study of Mus musculus with 6 samples.

Results

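The Wnt signalling genes described here are 48 genes taken by name: 13 ligands, 11 receptors and co-receptors, 8 secreted inhibitors, 6 cytoplasmic inhibitors, 4 cytoplasmic transducers, 4 nuclear factors of the TCF/LEF family and 2 target genes of the CCN family. Every probe set that the platform annotation assigned to 1 of them alone was kept, which gave 106 of the 45033 probe sets tested and covered 47 genes; no probe set was named for Tcf7 here. The RNA was that of C2C12, an established line of mouse muscle precursors that stop dividing and fuse into myotubes when serum is lowered. The 3 control arrays carried RNA of cells transfected with a short hairpin RNA (shRNA) against GFP, which has no target in these cells, and the 3 others RNA of cells transfected with an shRNA against PRDM2. This nuclear protein carries a PR domain and is known for methylation of histone H3 lysine 9. Both groups were kept for 28 hours in medium with 2% horse serum and differed, per the labels, only in the shRNA. The labels number the arrays 1 to 3 in each group and call them biological replicates; no source used here says that they came from separate transfections, and the p-values then measure only the spread between these samples. The shRNA sequences, the number of hairpins and whether the cells were pools or clones are not given in the sources used here.

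Wnt proteins are secreted ligands that bind Frizzled receptors together with the co-receptors Lrp5 and Lrp6. Without a ligand, a complex built on Axin and Apc lets Gsk3b mark beta-catenin (Ctnnb1) for destruction; binding of the ligand recruits Dishevelled (Dvl) proteins, stops that destruction, and lets beta-catenin enter the nucleus and act with TCF/LEF factors on target genes. Secreted inhibitors of the Dkk and Sfrp families and Wif1 block the ligand or its receptors, while Nkd proteins act on Dishevelled inside the cell. In skeletal muscle the pathway is known for roles in embryonic myogenesis, in satellite cells and in the balance between myoblast growth and differentiation, and a second, beta-catenin-independent branch acts through the cytoskeleton.

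To show the DNA around the starts of members on which the results turn, RefSeq promoter windows (assembly GRCm38.p6, 250 bases before to 50 bases after a start) were searched for the letters that TCF/LEF factors are known to bind: CTTTGAT or CTTTGAA or CTTTGTT or CTTTGTA, on both strands. The table held windows for 32 of the 48 genes. Those of Wnt9a and Tcf7l1 are shown because these genes passed a test in a fit with 4 arrays. Neither passed in the main fits described below, with all 6 arrays and without control replicate 2. No window was found for Wnt10a or Wisp1, which also passed a test. Also shown is 1 Lef1 window, because it holds a match. The capitals mark the match, which starts 147 bases before the start and reads CTTTGTA on the minus strand of the window.
Wnt9a, chr11:59306680-59306979, plus strand: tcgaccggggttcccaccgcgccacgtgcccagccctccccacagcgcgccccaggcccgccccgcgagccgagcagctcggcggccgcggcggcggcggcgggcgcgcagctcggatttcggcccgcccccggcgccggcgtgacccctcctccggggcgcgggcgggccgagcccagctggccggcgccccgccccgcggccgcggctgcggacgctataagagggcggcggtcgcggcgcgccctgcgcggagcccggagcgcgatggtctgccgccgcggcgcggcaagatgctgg
Tcf7l1, chr6:72788996-72789295, minus strand: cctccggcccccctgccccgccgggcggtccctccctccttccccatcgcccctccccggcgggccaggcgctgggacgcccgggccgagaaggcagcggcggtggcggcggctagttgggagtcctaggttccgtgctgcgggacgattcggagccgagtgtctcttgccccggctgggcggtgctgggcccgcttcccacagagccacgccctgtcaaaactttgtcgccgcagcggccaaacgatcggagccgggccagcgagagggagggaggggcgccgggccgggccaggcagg
Lef1, chr3:131156044-131156343, plus strand: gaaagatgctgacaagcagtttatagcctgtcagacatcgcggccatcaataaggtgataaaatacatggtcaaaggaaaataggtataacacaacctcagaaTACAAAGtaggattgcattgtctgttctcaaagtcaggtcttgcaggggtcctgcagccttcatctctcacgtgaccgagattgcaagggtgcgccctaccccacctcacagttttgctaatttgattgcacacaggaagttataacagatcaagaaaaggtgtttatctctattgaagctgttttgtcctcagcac
The Wnt9a and Tcf7l1 windows hold none of these letters, and their GC content is 83.3% and 75.3% against 43.7% in the Lef1 window. The Lef1 window belongs to 1 of 4 starts in the table, and the other 3 hold no match. Over the members, 6 of 41 windows (14.6%) held a match, against 5544 of 32851 windows (16.9%) of the whole table. A match is a description of letters and not of binding, and no match says only that these letters are not in this window.

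Values are given as log2(intensity + 16) after quantile normalization, called log2 levels below; a difference is the PRDM2 shRNA mean minus the control mean on that scale, with limma's standard error (SE). A probe set whose mean is under 5, which corresponds to 16 intensity units, in both groups is called dim, and the offset then compresses its difference. Of the 106 member probe sets 57 were dim, and of the 47 genes, each led by its brightest probe set, 20 were dim. No level of a gene is set against that of another, since probe sets differ in how strongly they bind. The plot of level against difference places all 106 probe sets on this scale.

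**Figure D1:**
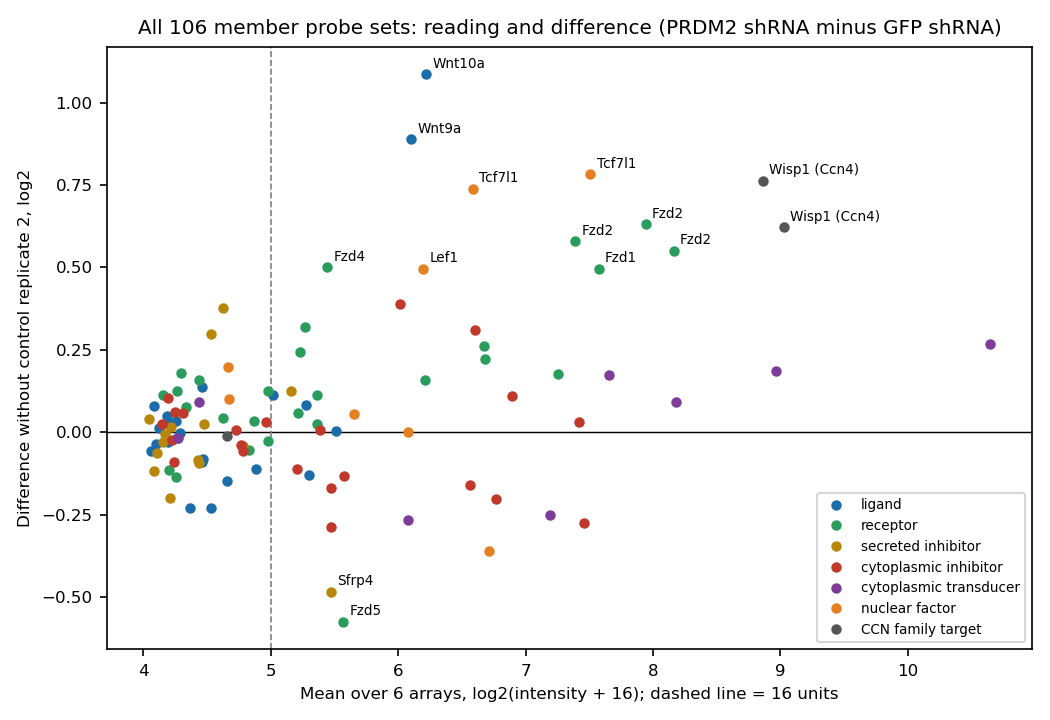
All 106 probe sets of the Wnt genes. The horizontal axis is the mean log2(intensity + 16) over the 6 arrays, the vertical axis is the log2 difference, PRDM2 shRNA minus control, without control replicate 2, and colour is the role. The dashed line at 5 marks 16 intensity units; the largest difference, 1.09, is that of Wnt10a, and the lowest, -0.57, that of Fzd5.

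The targeted gene, Prdm2, had no lower messenger RNA reading in the group with the PRDM2 hairpin, so the direction of each difference rests on the labels alone. By replicate 1, 2 and 3, its brightest probe set read 6.19, 6.42 and 5.94 in the controls, and 6.67, 6.32 and 6.02 with PRDM2 shRNA (difference 0.15, SE 0.19), and its other 2 probe sets also had positive differences. The position of the hairpin's target within the transcript was not analysed here. Median intensities of the arrays lay between 10.7 and 11.4 units, and 42.5% to 43.4% of probe sets read above 16 units. Control replicate 2 stood apart from the other controls. Over all probe sets it correlated at 0.9969 with PRDM2 shRNA replicate 2, while the other 14 pairs of arrays lay between 0.9719 and 0.9892. Whether control replicate 2 holds the RNA that its label names, or a mixture, was not tested, and every value with or without it depends on that. Every comparison is therefore given with all 6 arrays and without control replicate 2, and where it matters also without both arrays numbered 2. Skeletal muscle markers, whose defining members Myod1, Myog, Des and Acta1 were above 16 units, were present in every array, with summed intensities of 20500 to 23700 units in the controls and 23800 to 26000 units in the PRDM2 shRNA arrays (15 of 15 genes measured). Bright genes set these sums, and 3 of the 15 rose without control replicate 2: Cav3 by 2.68, Myh7 by 2.58 and Mef2c by 1.68 (adjusted p = 0.0118, 0.0145 and 0.0464 in limma). Sums of the 8 fibroblast markers were 1830 to 3290 and 2230 to 3150 units, and the genes of this list went both ways. Dcn, the matrix proteoglycan decorin, read 176, 17.8 and 178 units in the controls and 7.23, 13.7 and 19.6 units in the PRDM2 shRNA arrays. It fell by 2.74 without control replicate 2 (adjusted p = 0.0107 in limma). In the same fit the brightest probe sets of Pdgfra, Pi16 and Col1a2 differed by 0.78, 0.72 and 0.49. Those of Lum, Dpt, Thy1 and Cd248 differed by -0.27, -0.15, -0.045 and -0.028, and Dcn alone was called. Sums of the 7 smooth muscle markers stood at 4510, 5710 and 4600 units in control replicates 1, 2 and 3 and at 5850 to 7390 units in the PRDM2 shRNA arrays; Tagln rose by 1.80 and Actg2 by 1.82 without control replicate 2 (adjusted p = 0.0253 and 0.0223 in limma). The 6 neural markers summed to 584 to 1250 and 490 to 574 units, and without control replicate 2 Nefl fell by 4.72, Tubb3 fell by 3.19 and Stmn2 rose by 1.62 (adjusted p = 0.00206, 0.0113 and 0.0144 in limma). With all 6 arrays none of these markers was called. Sums of the adipocyte, osteoblast and chondrocyte, endothelial and macrophage markers stayed at or under 195 units. In that order 3 of 6, 4 of 6, 4 of 5 and 3 of 5 genes measured read under 16 units in every array. Adipoq and Pecam1 were near 0, but Retn read 33.4 to 90.4 units and Cebpa 20.2 to 79.2 units. Sp7 read 37.5 to 50.9, Sox9 46.1 to 117, Csf1r 34.5 to 134 and Emcn up to 52.6 units. Cebpa differed by 0.95 without control replicate 2 (adjusted p = 0.179 in limma). In RNA from a whole culture, fewer cells of a type and less RNA per cell cannot be told apart, and the part of these shifts in the results below was not tested.

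With all 6 arrays, no Wnt gene passed the threshold of an adjusted p under 0.05 (limma, Benjamini-Hochberg over 45033 probe sets), and neither did any other probe set (0 called, 0%). At an unadjusted p under 0.05 (limma), 5 of the 106 member probe sets stood out (4.72%), 4 higher and 1 lower, against 1326 of all probe sets (2.94%; 1.13% higher and 1.82% lower). Without control replicate 2, Wnt10a was the only member called, 1 of 106 probe sets (0.943%), against 238 of all (0.529%). In that fit 19 member probe sets (17.9%) had an unadjusted p under 0.05 (limma), 15 higher and 4 lower, against 10.2% of all (5.09% higher and 5.16% lower). Among probe sets that were not dim, the same counts were 17 of 49 member probe sets (34.7%) and 3867 of 19983 (19.4%). With the replicate number as a block and both arrays numbered 2 left out, 6 member probe sets of 4 genes were higher and past the threshold: Wnt9a, Wnt10a, Tcf7l1 with 2 probe sets and Wisp1 with 2. That is 5.66% of the member probe sets, against 717 of all probe sets (1.59%). In this fit 405 of all probe sets (0.899%) were higher and past the threshold, as were 400 of the 19983 that were not dim (2.00%). This fit, 1 of the alternatives tried, has 4 arrays and 1 residual degree of freedom, so its errors rest mostly on the spread that limma pools over probe sets. It leaves out the arrays numbered 2, which had the smallest same-numbered difference in 23 of 27 genes that were not dim. The replicate block on all 6 arrays called 0 member probe sets. Members were chosen by name with earlier results of these data known, so these shares are a description.

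Across the 27 genes that were not dim, 19 lay on the higher side and 8 on the lower side with all arrays, with a median difference of 0.12, against -0.01 over all 10607 genes that were not dim. Without control replicate 2 the split was 20 and 7 and the median 0.16, against -0.02. Groups of arrays did not overlap in 2 of the 27 genes on the higher side and 1 on the lower side with all arrays (2.37% and 4.83% of all genes that were not dim), and in 11 and 5 without control replicate 2 (17.1% and 19.8%). By role, the medians over genes without control replicate 2, dim genes included, were 0.01 for the ligands, 0.18 for the receptors, 0.01 for the secreted inhibitors, -0.05 for the cytoplasmic inhibitors, 0.04 for the transducers, 0.50 for the 3 nuclear factors and 0.31 for the 2 CCN targets. With all arrays they were 0.05, 0.09, 0.01, 0.06, -0.05, 0.22 and 0.25 in the same order, so the medians of the cytoplasmic inhibitors and of the transducers changed sign. Dim genes, 7 of 13 ligands and 6 of 8 secreted inhibitors, are part of these medians. Over genes that were not dim, the medians without control replicate 2 were 0.10 for 6 ligands, 0.24 for 8 receptors, -0.18 for 2 secreted inhibitors, -0.05 for 4 cytoplasmic inhibitors and 0.09 for 3 transducers. With all arrays they were 0.13, 0.15, 0.01, -0.01 and -0.08 in the same order. Here the medians of the secreted inhibitors and of the transducers changed sign between the fits. The plot of differences by role shows each gene in both fits.

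**Figure D2:**
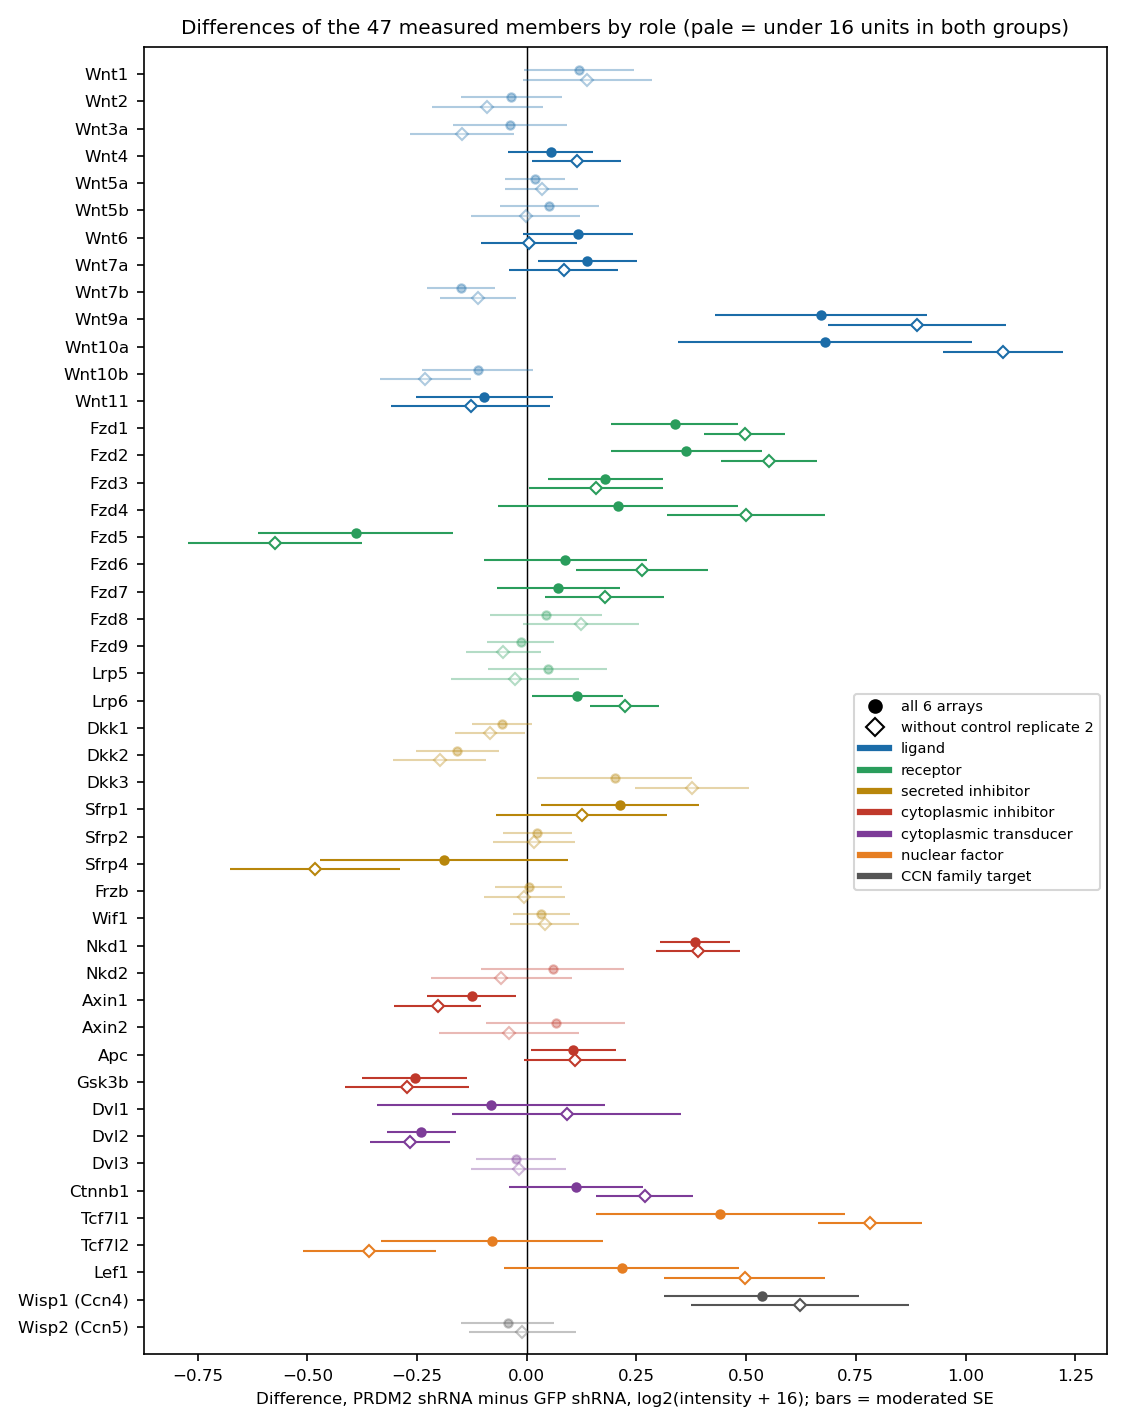
Log2 difference, PRDM2 shRNA minus control, of the brightest probe set of each of 47 Wnt genes, grouped by role. Circles are the fit with all 6 arrays and diamonds the fit without control replicate 2, bars are standard errors and pale symbols are dim genes. In both fits Wnt10a (0.68 and 1.09) and Wnt9a (0.67 and 0.89) lie farthest to the higher side and Fzd5 (-0.39 and -0.57) farthest to the lower side.

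Of the 13 ligands, 7 were dim: Wnt1, Wnt2, Wnt3a, Wnt5a, Wnt5b, Wnt7b and Wnt10b, so Wnt1 and Wnt3a, classical ligands of the beta-catenin branch, and Wnt5a, a classical ligand of the other, gave no reading above 16 units in the mean of either group. Wnt10a, a ligand that acts through beta-catenin on target cells, has 1 probe set and showed the largest difference of all members. Taken in the order of replicates 1, 2 and 3, as all values by array below, it read 5.47, 6.69 and 5.47 in the controls and 6.67, 6.70 and 6.31 in the PRDM2 shRNA arrays. As deposited intensities these are 27.8, 91.3 and 28.1 units against 88.3, 89.0 and 58.8 units. Control replicate 2 sat with the PRDM2 shRNA arrays, so the groups overlapped, and the other controls were well below all of them. The difference with all arrays was 0.68 (SE 0.34, 95% interval -0.12 to 1.48, adjusted p = 1 in limma). Without control replicate 2, Wnt10a rose by 1.09 (SE 0.14, 2.12-fold, adjusted p = 0.0437 in limma), with 3 of 3 PRDM2 shRNA arrays above both remaining controls. That call was lost when a further array was left out: control replicate 1 (adjusted p = 0.468), control replicate 3 (0.253), PRDM2 shRNA replicate 1 (0.136) or PRDM2 shRNA replicate 2 (0.119), all in limma; over all the alternatives to this fit the adjusted p ran from 0.0153 to 0.468.

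Wnt9a, a ligand known for its part in joint and limb development, had the next largest difference among the ligands. It read 5.79, 6.20 and 5.31 in the controls and 6.74, 6.26 and 6.31 in the PRDM2 shRNA arrays. Every PRDM2 shRNA array was above every control, although control replicate 2 and PRDM2 shRNA replicate 2 were only 0.06 apart. The difference was 0.67 (SE 0.24, 95% interval 0.09 to 1.25) with all arrays and 0.89 (SE 0.20) without control replicate 2, and neither passed the threshold (adjusted p = 1 and 0.173 in limma). In the blocked fit without the arrays numbered 2, Wnt9a rose by 0.98 (SE 0.09, adjusted p = 0.0142 in limma), higher in 2 of 2 pairs kept. With the replicate block on all 6 arrays, Wnt9a differed by 0.67 (adjusted p = 0.631 in limma). Its other probe set was dim and differed by -0.04 (SE 0.08) with all arrays. The remaining ligands that were not dim, Wnt4, Wnt6, Wnt7a and Wnt11, differed by 0.05, 0.12, 0.14 and -0.10 with all arrays, with an unadjusted p of 0.262 or higher (limma). The panels of values by array show how the arrays of each gene fall.

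**Figure D3:**
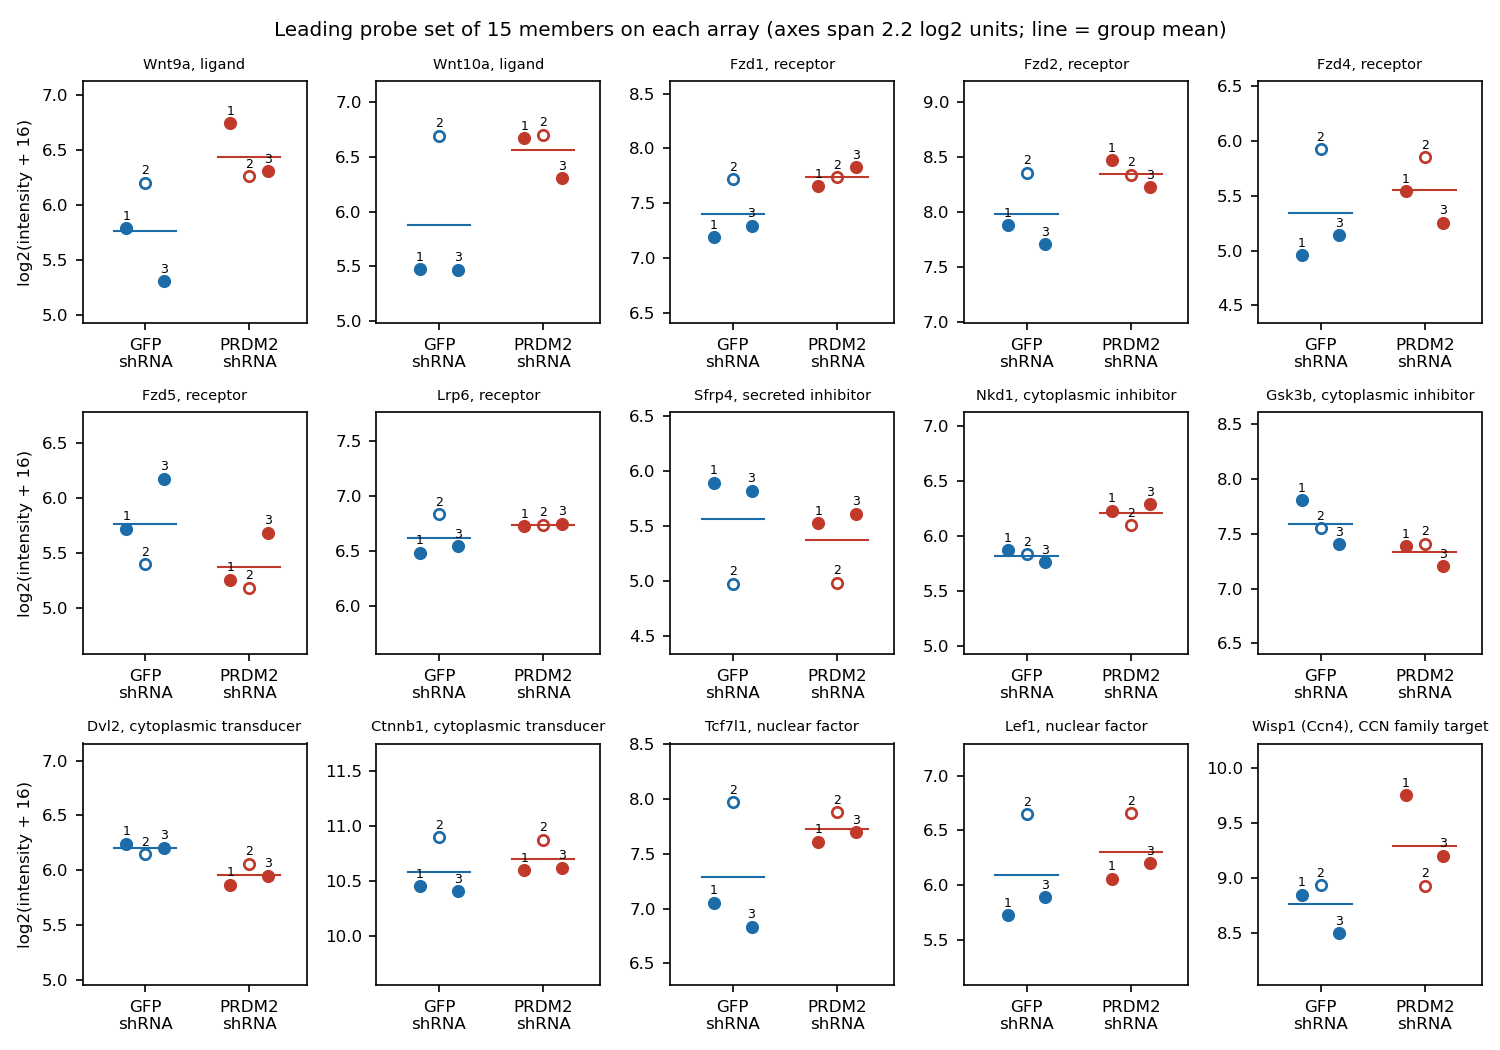
Log2(intensity + 16) of 15 Wnt genes, 1 panel per gene, in the 3 control (GFP shRNA) and 3 PRDM2 shRNA arrays; each point is 1 array and the open symbol is replicate 2 of its group, and the line is the group mean. For Wnt10a, Tcf7l1, Lef1 and Fzd4 the open control symbol lies above the other 2 controls and close to the open PRDM2 shRNA symbol; for Wnt9a, Nkd1 and Dvl2 the groups do not overlap.

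Among the 11 receptors, 9 differences were positive with all arrays and 8 without control replicate 2; Fzd8, Fzd9 and the co-receptor Lrp5 were dim, and none was called in any of these fits. Fzd2, a Frizzled receptor that can serve either branch of the pathway, read 7.88, 8.36 and 7.71 in the controls and 8.47, 8.34 and 8.22 in the PRDM2 shRNA arrays. Again control replicate 2 lay among the PRDM2 shRNA arrays and the other 2 controls below them. The difference was 0.36 (SE 0.17) with all arrays and 0.55 (SE 0.11, adjusted p = 0.123 in limma) without control replicate 2. Its 3 probe sets agreed in sign and size, at 0.55, 0.63 and 0.58 without control replicate 2, and the lowest adjusted p among them was 0.0663 (limma). Fzd1, which resembles Fzd2 and Fzd7 in sequence, read 7.19, 7.72 and 7.30 against 7.66, 7.74 and 7.83. Its difference was 0.34 (SE 0.14) with all arrays and 0.50 (SE 0.09, adjusted p = 0.107 in limma) without control replicate 2; its other probe set gave 0.13 and 0.11.

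Fzd4, a receptor that also binds the unrelated ligand norrin, read 4.96, 5.92 and 5.14 in the controls and 5.54, 5.85 and 5.25 in the PRDM2 shRNA arrays. Here replicate 2 was the highest array of each group, and the difference was 0.21 (SE 0.27) with all arrays and 0.50 (SE 0.18, adjusted p = 0.404 in limma) without control replicate 2. Lrp6, the co-receptor that is phosphorylated when Wnt binds, read 6.49, 6.84 and 6.54 against 6.73, 6.74 and 6.75, a difference of 0.12 (SE 0.10), and of 0.22 (SE 0.08, adjusted p = 0.387 in limma) without control replicate 2. Its 3 PRDM2 shRNA arrays were within 0.1 of each other and inside the range of the controls. Fzd3, Fzd6 and Fzd7, the last the receptor through which Wnt7a is known to act on satellite cells, differed by 0.18, 0.09 and 0.07 with all arrays and 0.16, 0.26 and 0.18 without control replicate 2, with adjusted p of 0.677 or higher in limma.

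Among the 8 receptors that were not dim, Fzd5 alone lay lower in the PRDM2 shRNA arrays in both fits. It read 5.72, 5.39 and 6.18 in the controls and 5.26, 5.18 and 5.68 in the PRDM2 shRNA arrays, so the groups overlapped with all arrays, and PRDM2 shRNA replicate 3 stayed just under control replicate 1. The difference was -0.39 (SE 0.22) with all arrays and -0.57 (SE 0.20, adjusted p = 0.381 in limma) without control replicate 2. Leaving out control replicate 3, the highest array, took these to -0.18 and -0.35. Each same-numbered difference was negative (-0.46, -0.21 and -0.49), and the blocked fit without the arrays numbered 2 gave -0.48 (SE 0.09, adjusted p = 0.0837 in limma). Its other probe set was dim and also negative, at -0.14.

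Secreted inhibitors mostly had means under 16 units in both groups: 6 of 8 were dim (Dkk1, Dkk2, Dkk3, Sfrp2, Frzb and Wif1), and none was called. Dkk3, a Dkk relative that does not block Lrp6 as Dkk1 does, read 4.20, 4.88 and 4.50 in the controls and 4.62, 4.88 and 4.68 in the PRDM2 shRNA arrays. Its difference was 0.20 (SE 0.18) with all arrays and 0.38 (SE 0.13, adjusted p = 0.38 in limma) without control replicate 2, on a dim probe set. Sfrp4, a soluble Frizzled-like decoy, went the other way. It read 5.89, 4.98 and 5.82 in the controls and 5.53, 4.99 and 5.62 in the PRDM2 shRNA arrays: both arrays numbered 2 were near 5 and the other 4 above 5.5. The difference was -0.19 (SE 0.28) with all arrays, turned to 0.0064 without PRDM2 shRNA replicate 2, and was -0.48 (SE 0.19, adjusted p = 0.474 in limma) without control replicate 2. Sfrp1 read 5.15, 4.88 and 5.12 against 5.50, 4.87 and 5.41, with replicate 2 lowest in each group and a difference of 0.21 (SE 0.18), and of 0.13 (SE 0.19) without control replicate 2. Its other 4 probe sets were dim, and 2 of them with all arrays and 3 without control replicate 2 had the opposite sign.

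Among the 6 cytoplasmic inhibitors, Nkd1 had the smallest unadjusted p of all members with all arrays. Nkd1, which binds Dishevelled and is itself a known target of beta-catenin, read 5.87, 5.84 and 5.76 in the controls and 6.23, 6.10 and 6.29 in the PRDM2 shRNA arrays. The groups did not overlap, and here control replicate 2 sat with the other controls. The difference was 0.38 (SE 0.08, 95% interval 0.19 to 0.57, unadjusted p = 0.00217 and adjusted p = 1 in limma), and 0.39 (SE 0.10, adjusted p = 0.202 in limma) without control replicate 2. Higher values were seen in 3 of 3 same-numbered pairs, at 0.36, 0.26 and 0.53. The other 3 probe sets of Nkd1 did not share this pattern: the 1 that was not dim read 5.71, 5.13 and 5.57 against 5.54, 5.18 and 5.70, a difference of -0.00 (SE 0.19), and the dim ones differed by 0.10 and -0.04.

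Axin2, the negative regulator often used as a readout of beta-catenin activity, was dim on both its probe sets. Its brightest read 5.05, 4.53 and 4.64 in the controls and 4.998, 4.67 and 4.74 in the PRDM2 shRNA arrays, with replicate 1 highest in each group. The difference was 0.07 (SE 0.16, 95% interval -0.31 to 0.44) with all arrays and -0.04 (SE 0.16) without control replicate 2, so its sign depended on which arrays were kept. Axin1, the scaffold of the destruction complex, differed by -0.13 (SE 0.10), and Apc, the other scaffold, by 0.11 (SE 0.10). Gsk3b, the kinase that marks beta-catenin, read 7.80, 7.55 and 7.41 against 7.38, 7.41 and 7.20; the groups met at 7.41 and the difference was -0.26 (SE 0.12). Without control replicate 1, the highest array, it was -0.15. Its other 5 probe sets differed by between -0.24 and 0.00, and none of the 6 was called in any of these fits.

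Beta-catenin messenger RNA (Ctnnb1) differed by less than its error with all arrays. Its brightest probe set read 10.45, 10.90 and 10.41 in the controls and 10.60, 10.88 and 10.62 in the PRDM2 shRNA arrays, with replicate 2 highest in each group. The difference was 0.11 (SE 0.15, 95% interval -0.25 to 0.48) with all arrays and 0.27 (SE 0.11, adjusted p = 0.489 in limma) without control replicate 2; its other 2 probe sets gave 0.13 and 0.18 with all arrays. The pathway controls beta-catenin mainly as a protein, which arrays do not measure. Dvl2, a Dishevelled protein, read 6.24, 6.15 and 6.21 in the controls and 5.87, 6.06 and 5.95 in the PRDM2 shRNA arrays. All 3 PRDM2 shRNA arrays lay below all 3 controls, with a difference of -0.24 (SE 0.08, adjusted p = 1 in limma) and of -0.27 (SE 0.09, adjusted p = 0.377 in limma) without control replicate 2. Its dim second probe set gave 0.08. Dvl1 read 8.02, 8.56 and 8.07 against 7.83, 8.69 and 7.89, so the replicate number separated its arrays more than the group did, and Dvl3 was dim.

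Of the 3 nuclear factors, Tcf7l1 and Lef1 had positive differences, and the probe sets of Tcf7l2 disagreed in sign. Tcf7l1, known as a repressor of Wnt target genes when beta-catenin is absent, read 7.05, 7.97 and 6.84 in the controls and 7.61, 7.88 and 7.70 in the PRDM2 shRNA arrays. Control replicate 2 was the highest of the 6 arrays, and the other 2 controls were the lowest. The difference was 0.44 (SE 0.28) with all arrays and 0.78 (SE 0.12, 1.72-fold, adjusted p = 0.0671 in limma) without control replicate 2. In the blocked fit without the arrays numbered 2, Tcf7l1 rose by 0.71 (SE 0.11, adjusted p = 0.0493 in limma), higher in 2 of 2 pairs kept. Its other probe set gave the same picture: it read 6.17, 6.83 and 6.02 against 6.83, 6.99 and 6.68, and rose by 0.66 (SE 0.09, adjusted p = 0.0371 in limma) in that fit. In the pair left out, the brightest probe set differed by -0.09. With the replicate block on all 6 arrays, its difference was 0.44 (adjusted p = 0.631 in limma).

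Lef1, a TCF/LEF factor that mainly activates, read 5.73, 6.65 and 5.89 in the controls and 6.06, 6.66 and 6.20 in the PRDM2 shRNA arrays. The arrays numbered 2 were almost equal and the highest of their groups, and the difference was 0.22 (SE 0.27) with all arrays and 0.50 (SE 0.18, adjusted p = 0.423 in limma) without control replicate 2. Tcf7l2, the family member most studied in adult tissues, has 4 probe sets. The brightest read 7.06, 6.19 and 7.01 against 6.68, 6.42 and 6.92, a difference of -0.08 (SE 0.25), and of -0.36 (SE 0.15, adjusted p = 0.506 in limma) without control replicate 2. The other 3 differed by -0.11, -0.02 and 0.10 with all arrays, and by 0.0024, 0.05 and 0.10 without control replicate 2, so no direction is read for this gene. Of the windows shown above, that of Tcf7l1 holds no TCF/LEF letters and that of 1 Lef1 start holds a match; the difference of neither gene passed the threshold in the fits with and without control replicate 2.

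Wisp1, named Ccn4 in current annotation, encodes a secreted matricellular protein and was first described as a target of Wnt1. It read 8.85, 8.93 and 8.50 in the controls and 9.75, 8.93 and 9.20 in the PRDM2 shRNA arrays. PRDM2 shRNA replicates 1 and 3 were the highest arrays, and the arrays numbered 2 were equal to 2 decimals. The difference was 0.54 (SE 0.22, 95% interval 0.00 to 1.07, adjusted p = 1 in limma) with all arrays and 0.62 (SE 0.25, adjusted p = 0.469 in limma) without control replicate 2. Leaving out PRDM2 shRNA replicate 1 lowered these to 0.31 and 0.39. In the blocked fit without the arrays numbered 2, it rose by 0.80 (SE 0.10, adjusted p = 0.0298 in limma), and its other probe set, which read 8.51, 9.01 and 8.24 against 9.41, 9.05 and 8.96, rose by 0.81 (SE 0.10, adjusted p = 0.0286 in limma). With the replicate block on all 6 arrays, the brightest probe set differed by 0.54 (adjusted p = 0.631 in limma). Wisp2, named Ccn5, was dim.

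The arrays of the Wnt genes followed the replicate number as well as the group, as the heat map of the 27 genes that were not dim shows. In 22 of these 27 genes control replicate 2 was nearer to PRDM2 shRNA replicate 2 than to either other control, and in 18 it was nearer to the PRDM2 shRNA mean than to the mean of controls 1 and 3. The median absolute difference over the 27 genes was 0.06 between the arrays numbered 2, 0.11 between control replicates 1 and 3, and 0.33 and 0.42 between control replicate 2 and those controls. The closeness was that of the whole series. Over all genes in the upper quartile of level, the median absolute deviation of the differences was 0.07 between the arrays numbered 2. It was 0.21 between control replicates 1 and 3, and 0.37 and 0.35 between control replicate 2 and those controls. Ratios of 3' to 5' probe sets, a measure of RNA integrity, also went with the number: the Actb ratio was 1.62, 1.39 and 1.77 in the controls and 1.60, 1.45 and 1.71 in the PRDM2 shRNA arrays. The part of RNA integrity in these results was not tested.

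**Figure D4:**
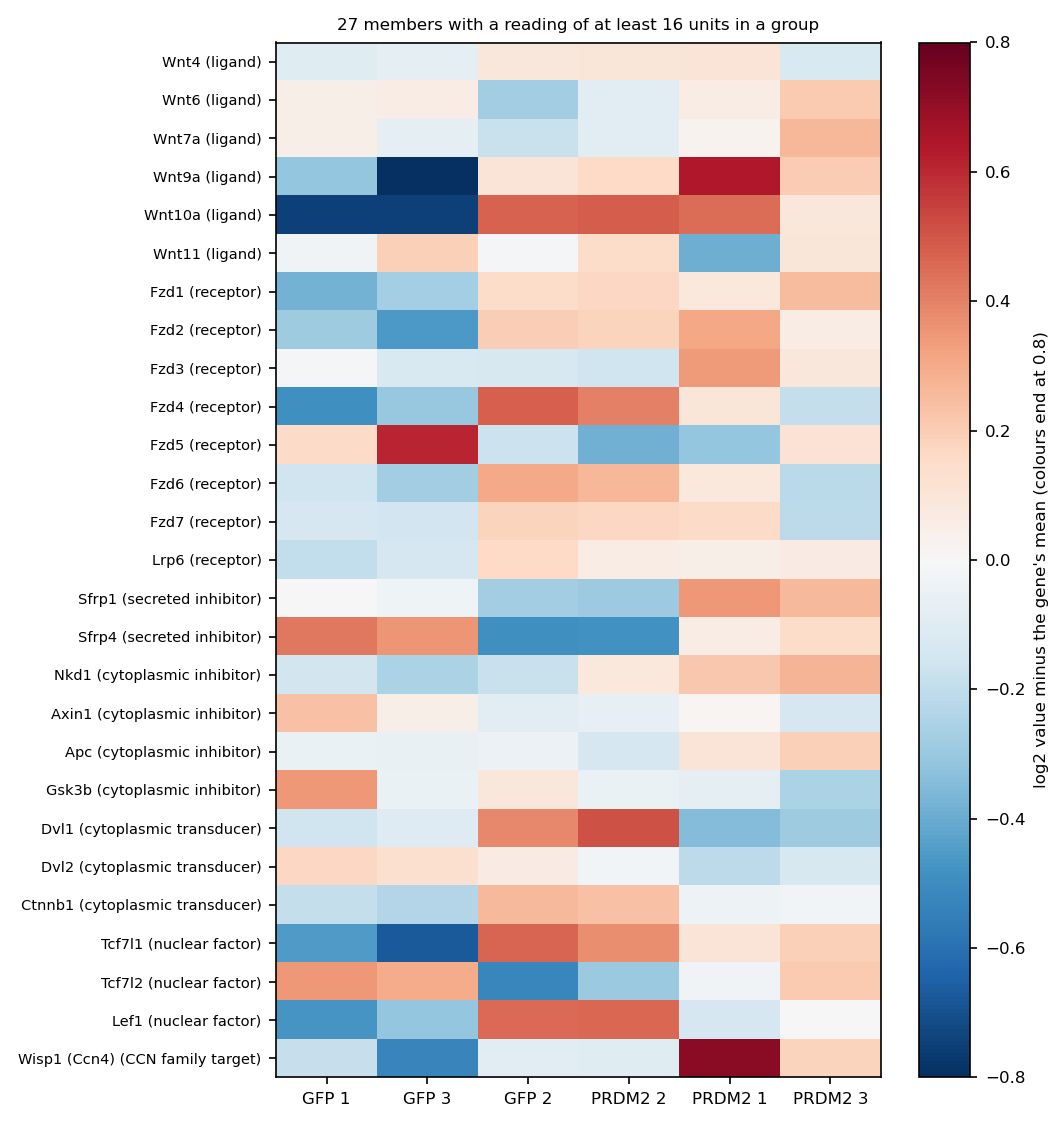
Heat map of the 27 Wnt genes that were not dim, in the 6 arrays; colour is the log2(intensity + 16) level minus the gene's mean over the 6 arrays, ends at 0.8, and rows are grouped by role. Columns run from control (GFP shRNA) replicates 1 and 3 through control replicate 2 to PRDM2 shRNA replicates 2, 1 and 3; in most rows the 2 middle columns have nearly the same colour.

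Differences were also taken within each pair of arrays that share a number. Pair 2 had the smallest absolute difference in 23 of the 27 genes, with a median absolute difference of 0.06 against 0.36 in pair 1 and 0.21 in pair 3. The largest difference in pair 2 was that of Nkd1, 0.26. Pairs 1 and 3 had the same sign in 24 of 27 genes, and their median differences were 0.24 and 0.20, against -0.0046 in pair 2. Wnt10a differed by 1.19, 0.01 and 0.84 in pairs 1, 2 and 3, Tcf7l1 by 0.56, -0.09 and 0.86, and Fzd2 by 0.59, -0.02 and 0.52. Over the 68 genes of a wider Wnt list that were not dim, pair 2 was the smallest in 44 and pairs 1 and 3 had the same sign in 45. The closeness of the arrays numbered 2 was thus not limited to the members. Counts of this kind were not taken over all genes, so they are not read as a trait of the Wnt genes.

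**Figure D5:**
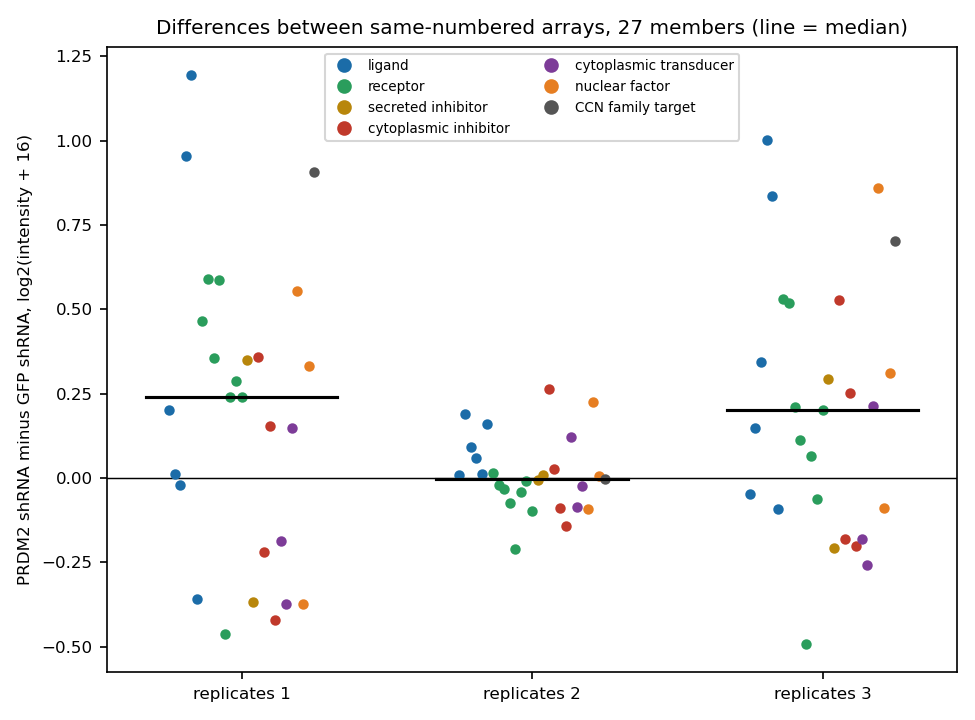
Log2 difference, PRDM2 shRNA minus control, within each pair of arrays with the same replicate number, for the 27 Wnt genes that were not dim; each point is 1 gene and the line in each column is the median. Medians are 0.24 in pair 1, -0.0046 in pair 2 and 0.20 in pair 3, and no gene in pair 2 lies farther than 0.26 from 0.

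The other genes of the pathway were taken from a list of 99 genes (other ligands, secretion, receptors, inhibitors, cytoplasmic and nuclear partners, the planar cell polarity branch and target genes), of which 96 were measured and 28 were dim. With all arrays none was called, and at an unadjusted p under 0.05 (limma) 2 were higher and 4 lower (1.34% and 2.37% of all genes). Without control replicate 2, none was higher and 2 fell, Tnik and Rhou, against 157 of all 18193 genes (0.863%), and 6 were higher and 11 lower at an unadjusted p under 0.05 (limma; 6.84% and 7.17% of all genes). The members had 11 and 3 by the same measure. The medians were -0.0093 over these 96 genes and 0.03 over the 47 members, and that difference was not tested. Tnik, a kinase that binds TCF factors and promotes their activity, read 6.92, 5.20 and 6.61 in the controls and 4.61, 4.96 and 4.78 in the PRDM2 shRNA arrays. It was lower in all 3 PRDM2 shRNA arrays than in any control, with control replicate 2 nearest to them, and fell by 1.98 without control replicate 2 (SE 0.14, adjusted p = 0.0113 in limma) after a difference of -1.46 (SE 0.42, adjusted p = 1 in limma) with all arrays. Rhou, a gene known to be induced by Wnt1, read 7.89, 6.73 and 7.73 against 6.42, 6.68 and 6.80, and fell by 1.18 (SE 0.13, adjusted p = 0.0337 in limma) without control replicate 2. The next smallest p in that fit was that of Cd44, a cell surface receptor and Wnt target (-1.06, SE 0.14, adjusted p = 0.0519 in limma), and with all arrays Daam1, a formin of the planar cell polarity branch (-0.78, SE 0.23), and Gja1, the gap junction protein connexin 43 (-0.60, SE 0.19), had the smallest p beside Tnik.

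In the blocked fit without the arrays numbered 2, 8 of the 96 genes passed the threshold, against 440 of all 18193 genes (2.42%): Tnik, Rhou, Daam1, Cd44 and Gja1 were lower, and Ryk, Cyr61 and Ctgf higher; the last 3 were chosen for naming after their values were seen. Ctgf and Cyr61 are CCN family members like Wisp1, and rose by 1.98 (SE 0.19, adjusted p = 0.0143 in limma) and 0.61 (SE 0.09, adjusted p = 0.046 in limma). The replicate block on all 6 arrays called none of the 96 genes. Ctgf read 8.34, 9.59 and 7.47 in the controls and 10.71, 9.59 and 9.05 in the PRDM2 shRNA arrays, with the arrays numbered 2 equal to 2 decimals. The smooth muscle marker sum was likewise nearly equal in the arrays numbered 2, at 5710 and 5850 units, and higher in PRDM2 shRNA replicates 1 and 3, at 7390 and 6150 units, than in control replicates 1 and 3, at 4510 and 4600 units; its part in these results was not tested.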

How the data were processed

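RNA was extracted with Trizol and biotinylated cRNA from 8 ug of it was hybridised to 1 Affymetrix mouse array per sample, per the labels' protocols. Samples were grouped by title. The deposited table gives a linear intensity per probe set, for which the submitters' processing notes name GCOS and PLIER; the normalization used by the authors is not given in the sources at hand. Of 45101 rows, 64 control probe sets were left out, and so were 4 Gngt1 rows that held the gene's Entrez number as the intensity in 1 array. The table has 0 sample columns that were not used. Gene names came from the platform annotation (34941 probe sets name 1 gene, 932 several, 9160 are unnamed here).

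Values were taken as log2(intensity + 16) and quantile-normalized, since the upper quartiles of the 6 arrays differed by 0.15, above a limit of 0.1. The comparison used limma 3.58.1 under R 4.3.3 (lmFit, eBayes, two-sided), adjusted by Benjamini-Hochberg over 45033 probe sets, or for counts of genes read from the same fit at the brightest probe set of each of 18193 genes. The code was tested on simulated data. The 3 arrays per group limit the precision.

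The members, the lists and the fit without control replicate 2 were chosen with earlier results of these data known. Values by array are given for members past the threshold or with an unadjusted p under 0.05 in either fit, for the brightest member of each role, and for Prdm2, Axin2, Lef1 and Ctnnb1; others named were added after their values were seen. Genes of the wider list are named where past the threshold, or among the 3 smallest p of a fit.

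Deviations from the group means correlated at 0.32, 0.60 and 0.62 between arrays with the same number over 45033 probe sets, and 6 of 6 arrays had their own number as best partner. The numbers were therefore read as pairs; this comes from the data and not from the labels. The alternatives tried were: no further scaling or median centring in place of quantiles, offsets of 1 and 64, a filter on dim probe sets, 1 probe set per gene, array weights, trend and robust options of eBayes, the replicate block, and fits with arrays left out.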

Additional observations from a re-analysis of the deposited data

How the results depend on the processing

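With all 6 arrays, 0 probe sets were called under every alternative that kept all arrays, the replicate block included (0 called, 0 members). Members are counted here by probe set. Leaving out 1 array gave 0 to 238 calls and 0 to 1 member call, the highest without control replicate 2; leaving out both arrays numbered 2 gave 57 calls and 0 members, and the replicate block added to that gave 717 and 6. Without control replicate 2 (238 calls, 1 member), the deposited scaling gave 132 and 0, median centring 127 and 0, an offset of 1 gave 11 and 0, an offset of 64 gave 14 and 0, 1 probe set per gene 287 and 2, trend and robust settings 528 and 2, array weights 369 and 3, and the replicate block 717 and 6. Leaving out a further array gave 5 to 124 calls and 0 to 1 member: 5 without control replicate 1, 12 without control replicate 3, and 73, 57 and 124 without PRDM2 shRNA replicates 1, 2 and 3. With 1 control left, that array is assumed to vary like the others. Wnt10a lost its call under both other scalings (adjusted p = 0.0853 and 0.0924 in limma) and both offsets (0.166 and 0.123). Tcf7l1 gained one with 1 probe set per gene (0.0415), trend and robust settings (0.0389), array weights (0.0465) and the replicate block (0.0493). Over left-out arrays with all 6 as the base, signs turned for Axin2 (-0.040 to 0.22), Prdm2 (-0.012 to 0.31) and Sfrp4 (-0.48 to 0.0064). With control replicate 2 already out, Axin2 ran from -0.24 to 0.16. The replicate block gave 0.026 for Axin2 without control replicate 2 and without both arrays numbered 2, and 0.066 with all 6 arrays. The cause of these changes was not tested. The replicate block without control replicate 2 also called Wnt9a (0.0142) and Wisp1 (0.0298), and with all 6 arrays it called none. Low readings and the offset limit what the 20 dim genes can show.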
